A study of Ictidomys tridecemlineatus with 15 samples.

Results

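The circadian clock genes described here are the 10 genes Per1, Per2, Per3, Cry1, Cry2, Clock, Arntl, Nr1d1, Nr1d2 and Dbp, taken by name from a GRO-seq count table of 13-lined ground squirrel liver. Of the 6324 transcription units in the table, 9 carried the name of a listed gene, and Arntl had no unit of its own or in a merged name. Per2, Cry1, Cry2, Clock, Nr1d1 and Nr1d2 were single-gene units, whereas Per1, Per3 and Dbp lay in units in which overlapping genes had been joined, so that their reads could not be divided among the genes of the unit.

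The mammalian clock is a loop of transcription with a delay. The proteins CLOCK and ARNTL (also called BMAL1) bind together and switch on the Per and Cry genes, whose products return to the nucleus and repress that pair, and a second loop runs through the nuclear receptors NR1D1 and NR1D2 (REV-ERB alpha and beta), which repress Arntl and Clock and are themselves driven by CLOCK and ARNTL. In the liver the loop drives daily rhythms of many metabolic genes, in part through the D-box activator DBP, and it also responds to feeding, glucocorticoids and temperature.

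GRO-seq labels RNA on polymerases that are already engaged when nuclei are isolated, and the run-on was done at the same warm temperature for every liver, so that the values report engaged transcription and not the speed of transcription in the animal. The livers came from laboratory-housed females with no genetic or drug treatment, in 5 states. SA was summer active and warm, from before the hibernation season (3 libraries). IBA was interbout aroused, rewarmed between bouts of torpor (3 libraries). Ent was cooling on entrance into torpor (3 libraries), ET was early torpor (3 libraries) and LT was late torpor (2 libraries). SA animals had food and a daily light period, whereas IBA, Ent, ET and LT animals were without food in a dark, cold hibernaculum. Each library is 1 animal killed at 1 time, so that no daily rhythm was measured.

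The SA animals were all taken around midday, and the collection times of the other groups spread from morning to late afternoon and overlapped. Animals were collected over 3 hibernation years: all ET animals fell in 1, all LT animals in another and all IBA animals in the remaining 1, while SA and Ent mixed the years of IBA and LT. State and year therefore cannot be told apart in comparisons with ET. IBA and LT shared no year either, so that in this pair state can be separated from year only through the SA and Ent animals. Library totals were 3713883 to 8884763 counts, and the clock units held 42 to 6122 reads per library, so that counting error was small beside the spread between animals. Of 10 hepatocyte markers, 9 had a unit. Their level, summed over the 10 units with such a name, was 18103 to 30314 CPM in SA and IBA, 13646 to 16265 in Ent and 6334 to 12185 in ET and LT. Values of single markers below are of 1 unit each. The markers did not all move alike. Mean Cps1 was 7452 CPM in SA and 1046 in LT, and Alb, Ttr, Tf, Fga, Fgb and Hnf4a were also lower in LT. Apob had 3228 in SA, 4459 in IBA and 3781 in LT, and the merged Apoa1 unit had 1404, 2294 and 1385. Of the 29 listed markers of Kupffer cells and leukocytes, endothelial cells, stellate cells, cholangiocytes and erythroid cells, 4 had a unit (Cd68, Pecam1, Kdr and Sox9), and those of stellate and erythroid cells had 0. In bulk liver, fewer cells of a type and less nascent RNA per cell cannot be told apart. The Cd68 unit, which is merged with other genes, was at 236 to 523 CPM in ET and LT and 374 to 607 CPM in SA and IBA, whereas summed Pecam1 and Kdr were at 73.8 to 139 against 132 to 201 and Sox9 at 7.07 to 18.1 against 16.5 to 41.0. The part of these shifts in the changes of the clock units was not tested.

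Values are given as CPM, the count of a unit relative to its library total after TMM scaling. A higher CPM is thus a larger share of a library and not a larger absolute amount of transcription. The paper states that scaling by library size hides differences between stages in total transcription. Rises and falls below refer to this share, and absolute amounts were not measured. The states were compared by the quasi-likelihood test of edgeR, with the Benjamini-Hochberg adjustment taken across the 6324 units. A unit passed the test at an adjusted p of 0.001 or less. Over the 5 states together, 3 of the 9 clock units passed (the merged Per1 unit, Per2 and Cry2), where 25.5% of all units did. At an adjusted p of 0.05 or less all 9 clock units passed, and 62.0% of all units did, so that this looser count lay above the background while the stricter one was near it. IBA had the lowest mean of the 5 states for the Per1, Per2, Per3, Cry2 and Nr1d1 units, ET or LT had the highest mean for 7 of the 9 units, and Nr1d2 and the Dbp unit were highest in SA and lowest in ET.

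**Figure D1:**
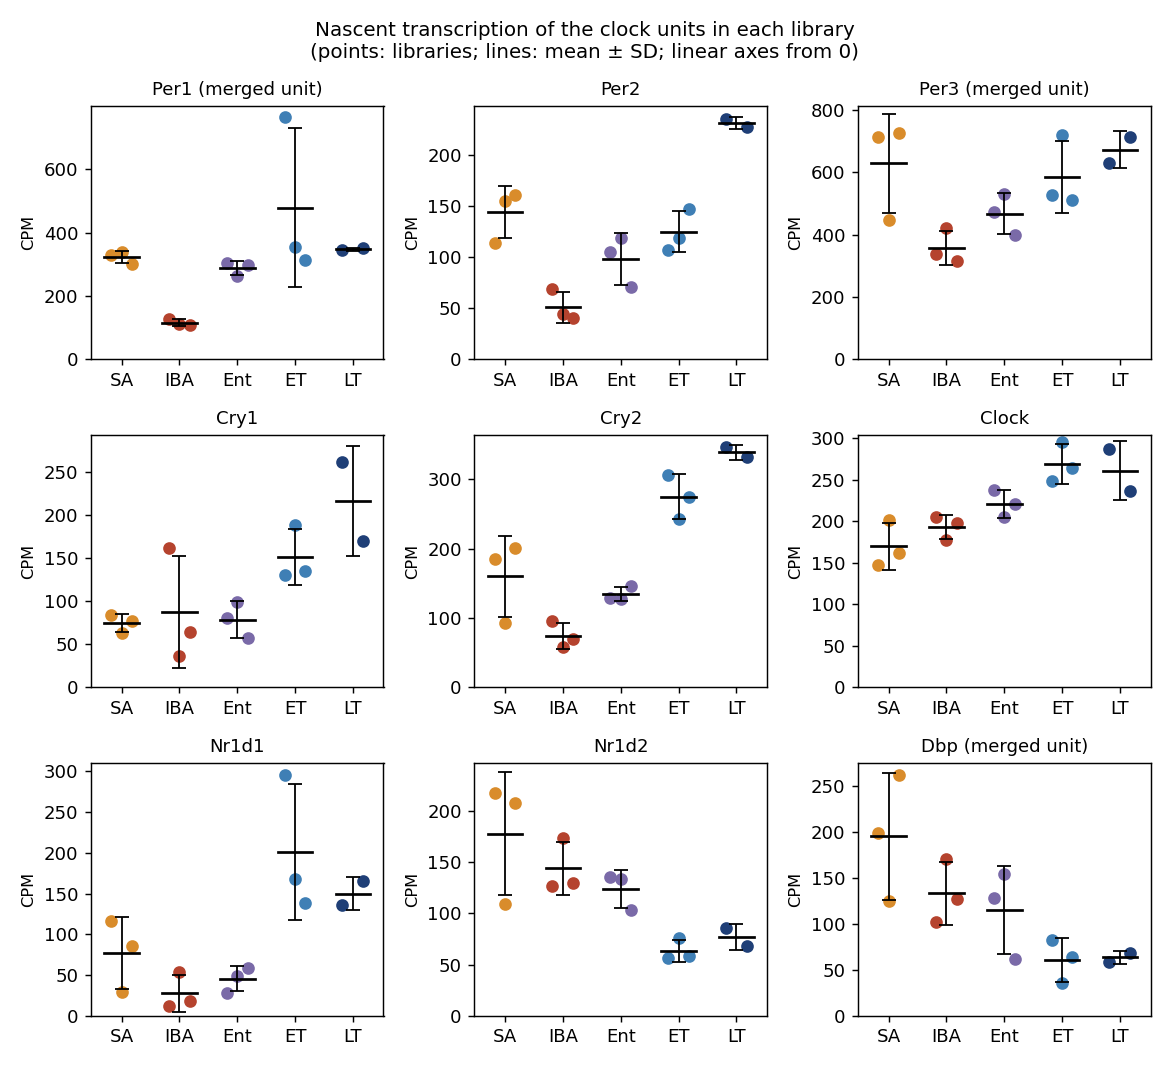
CPM of the 9 clock units (vertical axes, linear from 0) in each library (points) of SA, IBA, Ent, ET and LT, with the mean and SD of each state as black lines. Per2 ran from 40.6 to 68.5 CPM in IBA up to 228 and 236 in LT, and Nr1d1 and Nr1d2 lay on opposite sides in the cold states.

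Per2, a transcriptional repressor of the PER and CRY complex and a gene that also responds to body temperature, is the single-gene unit that spans 190673732 to 190717704 of Itri6 on the minus strand in the HiC_Itri_2 genome. It had 114, 155 and 161 CPM in SA, 68.5, 44.1 and 40.6 in IBA, 105, 119 and 70.4 in Ent, 107, 119 and 147 in ET, and 236 and 228 in LT. Every IBA library lay below every library of the other states, and both LT libraries lay above all others. With the SD over 3 animals, or 2 in LT, the means were 144 ± 25.4 CPM in SA, 51 ± 15.2 in IBA, 98.2 ± 25.1 in Ent, 125 ± 20.2 in ET and 232 ± 5.95 in LT. In this order of levels, from IBA through Ent, ET and SA to LT, the ranges of Ent and ET and of ET and SA overlapped. The 5 states differed (edgeR's quasi-likelihood test, adjusted p = 0.00019), and Per2 rose from IBA to LT by a log2 fold change of 2.19 (SE, the standard error of the fold change, 0.26, edgeR adjusted p = 4.4e-05). Its difference from SA to IBA was -1.50 (SE 0.24, edgeR adjusted p = 0.0041). Between ET and LT, both torpid and cold, Per2 differed by 0.90 (SE 0.25, edgeR adjusted p = 0.22), and it was the only clock unit with an unadjusted p of 0.05 or less there.

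Per1, the immediate-early member of the family, lies with Vamp2, a vesicle fusion protein, and 2 tRNA genes in a merged unit that spans 47884986 to 47914885 of Itri7 on the minus strand. tRNA genes are read by RNA polymerase III, whose transcripts a nuclear run-on labels too. The unit had 328, 338 and 300 CPM in SA, 128, 111 and 108 in IBA, 303, 263 and 298 in Ent, 766, 353 and 314 in ET, and 344 and 350 in LT. The IBA libraries were the lowest and stood apart from all others, and ET replicate 1 alone lay far above the remaining ET libraries. In IBA the mean and SD were 115 ± 11 CPM, against 322 ± 19.8 in SA, 288 ± 21.6 in Ent and 478 ± 251 in ET (n = 3 animals each) and 347 ± 4.39 in LT (n = 2). The unit changed among the 5 states (edgeR adjusted p = 0.00052) and rose from IBA to LT by 1.59 (SE 0.29, edgeR adjusted p = 0.00069). The log2 fold change was -1.48 between SA and IBA (SE 0.27, edgeR adjusted p = 0.0072) and 1.32 between IBA and Ent (SE 0.26, edgeR adjusted p = 0.0078). Without ET replicate 1 these steps had the same size, and both passed (edgeR adjusted p = 7e-05 and 0.00034). Each step passed in only 1 of the 14 fits that left out 1 library.

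Per3, the third member of the family, shares a unit with Vamp3 and the unannotated gene G5811 that spans 31795948 to 31877608 of Itri11 on the plus strand. The unit had 714, 446 and 727 CPM in SA, 339, 420 and 315 in IBA, 474, 529 and 399 in Ent, 526, 719 and 512 in ET, and 631 and 715 in LT. The IBA libraries lay below those of SA, ET and LT and overlapped with Ent. None of the 7 pairs of states tested passed, and the 5 states together had an edgeR adjusted p of 0.016. From SA to IBA the log2 fold change was -0.81 (SE 0.21, edgeR adjusted p = 0.042).

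Cry2, a cryptochrome that closes the negative limb of the loop, spans 21017917 to 21056512 of Itri3 on the minus strand. It had 185, 93.2 and 201 CPM in SA, 95.5, 58.7 and 69.0 in IBA, 129, 128 and 146 in Ent, 306, 243 and 275 in ET, and 347 and 332 in LT. The 5 libraries of ET and LT lay above all others, and the IBA libraries lay below those of Ent but overlapped with SA because SA replicate 2 was low. SA had a mean and SD of 160 ± 58.1 CPM, IBA of 74.4 ± 19.0, Ent of 134 ± 10.1, ET of 275 ± 31.9 (n = 3 animals each) and LT of 339 ± 10.7 (n = 2). Of the neighbours in the order IBA, Ent, SA, ET and LT, only the ranges of Ent and SA overlapped. Cry2 changed among the 5 states (edgeR adjusted p = 0.00013) and rose from IBA to LT by 2.19 (SE 0.27, edgeR adjusted p = 5.7e-05). The step from Ent to ET was 1.03 (SE 0.25, edgeR adjusted p = 0.0086).

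Cry1, its paralog and a strong repressor of CLOCK and ARNTL, spans 14919223 to 14984383 of Itri4 on the plus strand. It had 83.6, 63.5 and 76.4 CPM in SA, 161, 36.4 and 64.7 in IBA, 80.3, 98.7 and 56.8 in Ent, 130, 188 and 135 in ET, and 261 and 170 in LT. The IBA libraries spread from the lowest value of all to one inside the ET range, a 4.43-fold span within 1 state. The 5 states had an edgeR adjusted p of 0.026, and IBA to LT gave 1.31 (SE 0.45, edgeR adjusted p = 0.029). Without IBA replicate 1, the high one, these became 0.00083 and 0.00073, and the fold change from IBA to LT was 2.09. Both tests passed in only 1 of the 14 fits that left out 1 library.

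Clock, the positive partner of Arntl, spans 28398363 to 28508401 of Itri14 on the plus strand, at 110039 nt the longest of the single-gene clock units. It had 148, 202 and 162 CPM in SA, 205, 177 and 198 in IBA, 238, 205 and 221 in Ent, 249, 296 and 264 in ET, and 287 and 236 in LT. The values varied little within a state, and neighbours in the order SA, IBA, Ent, LT and ET overlapped in all 4 steps. Its spread between the highest and lowest library of a state was 1.15- to 1.37-fold, against up to 4.45-fold for Nr1d1. The 5 states had an edgeR adjusted p of 0.0061.

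Nr1d1, a heme-binding receptor that represses Arntl, spans 21861780 to 21871364 of Itri7 on the plus strand and at 9585 nt the shortest of the clock units. It had 116, 29.2 and 85.9 CPM in SA, 11.9, 53.1 and 17.4 in IBA, 28.4, 49.0 and 58.6 in Ent, 296, 168 and 138 in ET, and 136 and 165 in LT. The 5 torpid libraries lay above all 9 others, which spread widely and overlapped. SA had a mean and SD of 77.1 ± 44.2 CPM, IBA of 27.5 ± 22.4, Ent of 45.3 ± 15.4, ET of 201 ± 84.0 (n = 3 animals each) and LT of 150 ± 20.3 (n = 2). From Ent to ET the log2 fold change was 2.15 (SE 0.56, edgeR adjusted p = 0.013), the largest step of a clock unit between successive states, and the 5 states had an edgeR adjusted p of 0.0038. The unit overlaps 2259 nt of the opposite-strand unit Thra, the thyroid hormone receptor alpha gene, which itself rose from the warm to the cold states by 1.32 (edgeR adjusted p = 1.7e-05), and whether counting used the strand is not given in the sources used here.

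Nr1d2, the paralog of Nr1d1 with much of the same function, spans 182486665 to 182512755 of Itri2 on the plus strand. It had 218, 109 and 208 CPM in SA, 127, 174 and 130 in IBA, 136, 134 and 103 in Ent, 56.8, 75.8 and 57.9 in ET, and 86.0 and 68.2 in LT. Here the 5 torpid libraries lay below all 9 others. SA had a mean and SD of 178 ± 60 CPM, IBA of 144 ± 26.1, Ent of 124 ± 18.8, ET of 63.5 ± 10.7 (n = 3 animals each) and LT of 77.1 ± 12.6 (n = 2). Over the 5 states the edgeR adjusted p was 0.0012, just outside the threshold, and without SA replicate 2 it was 9.5e-05. Nr1d2 passed this test in only 1 of the 14 fits that left out 1 library. The step from Ent to ET was -0.97 (SE 0.25, edgeR adjusted p = 0.011).

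Dbp, the D-box activator whose transcription follows CLOCK and ARNTL closely in mouse liver, lies with Fam83e, Rpl18 and Ca11 in a unit that spans 21037913 to 21069954 of Itri16 on the minus strand. Rpl18 encodes a ribosomal protein and is a housekeeping gene, and the reads of Dbp could not be told from those of Rpl18. The unit had 199, 125 and 262 CPM in SA, 102, 171 and 127 in IBA, 128, 154 and 61.7 in Ent, 82.3, 35 and 63.4 in ET, and 58.7 and 68.5 in LT. The ET and LT libraries lay below those of SA and IBA, and Ent replicate 3 lay among them. The 5 states had an edgeR adjusted p of 0.0089. The unit overlaps 13109 nt of the opposite-strand unit Sphk2, which fell by 1.24 in log2 terms between the warm and the cold states (edgeR adjusted p = 0.00028).

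The steps of the cycle were then compared for the whole group. From SA to IBA 0 of 9 clock units passed edgeR's test, where 0.0158% of all units did, although 5 had an unadjusted p of 0.05 or less (22.0% of all units) and 3 passed by DESeq2 (3.49% of all units). The 3 were the Per1 unit, Per2 and Cry2, all lower in IBA. From IBA to Ent edgeR called 0 of 9 (0.0316% of all units), with 3 at an unadjusted p of 0.05 or less (32.5%) and 1, the Per1 unit, by DESeq2 (7.07%). From Ent to ET edgeR called 0 of 9 (2.21% of all units), with 6 at an unadjusted p of 0.05 or less (40.5%) and 2, Cry2 and Nr1d1, by DESeq2 (14.8%). The sign of the median differed between these steps: the clock units had median log2 fold changes of -0.81, 0.38 and 0.34 in the 3 steps, where the medians over all units were -0.02, -0.00 and -0.01.

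From ET to LT edgeR called 0 of 9 clock units and 0% of all units, with 1 at an unadjusted p of 0.05 or less (8.70% of all units) and 0 by DESeq2 (0.585%). SA and Ent likewise differed in 0 of 9 by edgeR (0.775% of all units), with 2 at an unadjusted p of 0.05 or less (37.1%) and 0 by DESeq2 (10.2%). From SA to LT edgeR called 0 of 9 (15.7% of all units), with 6 at an unadjusted p of 0.05 or less (55.8%) and 4 by DESeq2 (31.4%), namely Cry2 and Clock higher and Nr1d2 and the Dbp unit lower in LT. Without SA replicate 2, edgeR called Nr1d2 there (-1.46, adjusted p = 0.00029), in 1 of the 14 fits that left out 1 library.

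**Figure D2:**
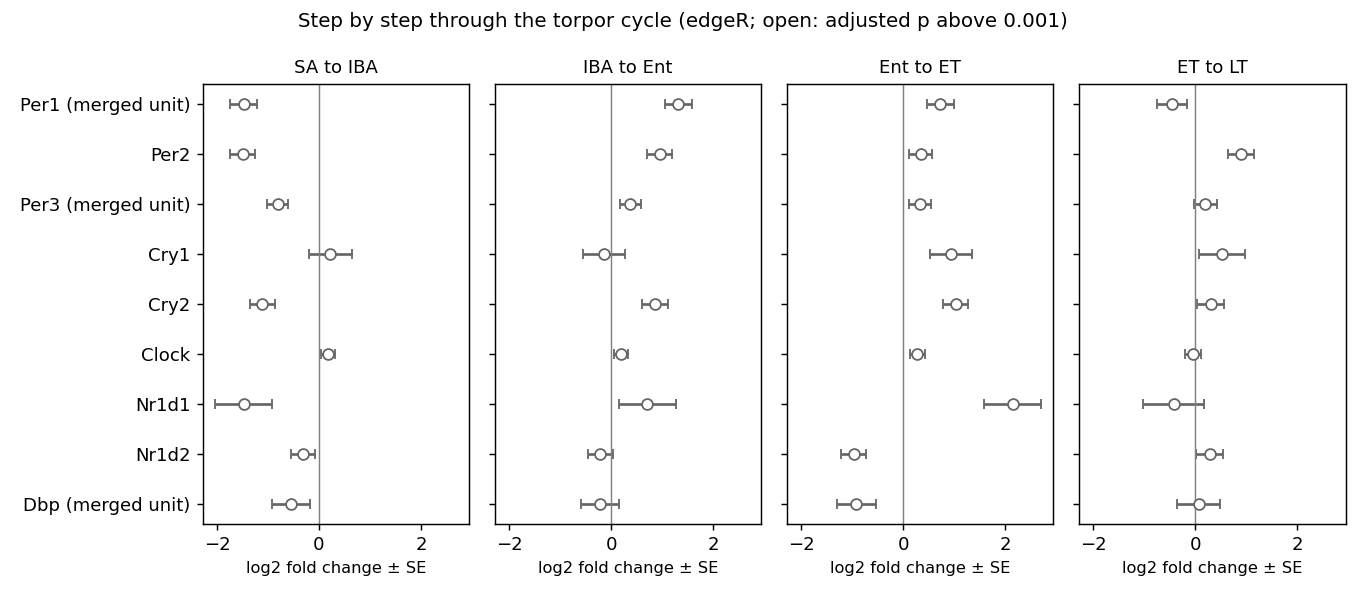
Log2 fold change with its standard error (horizontal axes) of each clock unit (rows) in the successive steps SA to IBA, IBA to Ent, Ent to ET, and ET to LT. Points are open because 0 of 9 units passed edgeR's test in each single step, and the Per1, Per2, Per3 and Cry2 units lie left of 0 in the first panel and right of it in the second.

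From IBA to LT, between arousal and the end of a bout, 3 of 9 clock units passed, as did 17.4% of all units. All 3 were higher in LT (the Per1 unit, Per2 and Cry2), where 9.69% of all units were called higher. The median over the clock units was 1.31 on the log2 scale and that over all units -0.05. With the hibernation year as a covariate 0 of 9 passed by edgeR, and the share of all units that passed was lower too, at 5.74%. Per2 then had a fold change of 2.09 (edgeR adjusted p = 0.0019), Cry2 of 2.12 (edgeR adjusted p = 0.0018) and the Per1 unit of 1.61 (edgeR adjusted p = 0.011). Per2 and Cry2 passed in each of the 14 fits that left out 1 library. Among these fits the Per1 unit passed only without SA replicate 2 or an ET library, and its adjusted p was 0.0011 to 0.0012 without another SA or Ent library, 0.0024 to 0.0039 without an IBA library and 0.006 and 0.0056 without LT replicates 1 and 3.

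The 6 warm libraries (SA and IBA) and the 5 cold ones (ET and LT) were compared as means of their states. In this contrast 5 of 9 clock units passed, as did 36.3% of all units, and all 9 had an adjusted p of 0.05 or less, as did 64.5% of all units. Higher in the cold were 4 (18.6% of all units) and lower 1 (17.6% of all units). Cry2 rose by 1.49 (SE 0.18, edgeR adjusted p = 1.8e-05). The Per1 unit rose by 1.08 (SE 0.19, edgeR adjusted p = 0.00034) and Per2 by 0.99 (SE 0.17, edgeR adjusted p = 0.00028), although for both the warm and cold libraries overlapped through the SA animals. Clock rose by 0.55 (SE 0.10, edgeR adjusted p = 0.00053). Nr1d2 fell by 1.19 (SE 0.19, edgeR adjusted p = 0.00012).

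Of the remaining units, Nr1d1 had 1.91 (SE 0.41, edgeR adjusted p = 0.0013), the Dbp unit -1.38 (SE 0.29, edgeR adjusted p = 0.0011), Cry1 1.16 (SE 0.31, edgeR adjusted p = 0.0051) and the Per3 unit 0.40 (SE 0.16, edgeR adjusted p = 0.036). Warm and cold libraries did not overlap for 5 clock units. Cry2, Clock and Nr1d1 were higher in every cold library, as were 21.1% of all units, and Nr1d2 and the Dbp unit were lower in every one, as were 19.5% of all units. The median change of all units in this contrast was -0.04, and 0.07 when libraries were scaled by their totals only.

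Cry2 passed this contrast under all 23 alternative fits, with adjusted p of 2.6e-13 to 0.00015. The other calls depended on single libraries for their adjusted p. Where a call was lost without 1 library, the fold change stayed close to that of the full fit, at 1.06 to 1.09 for the Per1 unit, 0.95 to 1.01 for Per2, 0.47 to 0.57 for Clock and -1.12 for Nr1d2. Without LT replicate 1, the Per1 unit had an edgeR adjusted p of 0.0017, Per2 of 0.0017 and Clock of 0.0047, and without LT replicate 3 the Per1 unit had 0.0017, Per2 0.0014 and Nr1d2 0.0015. Without IBA replicate 2 the Per1 unit had 0.0012, Per2 0.0011 and Clock 0.0019, while Nr1d1 reached 0.00021 with a fold change of 2.36. Without IBA replicate 3 the Per1 unit had 0.0013 and Clock 0.0015, and without SA replicate 3 they had 0.0011 and 0.0016. Clock also had 0.0014 without SA replicate 1, 0.0012 without IBA replicate 1, 0.0015 without ET replicate 2 and 0.0013 without ET replicate 3. Without IBA replicate 1 Cry1 reached 8.8e-05, and the Dbp unit reached 0.00058 without SA replicate 2, 0.00044 without Ent replicate 3 and 0.00087 without ET replicate 1.

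**Figure D3:**
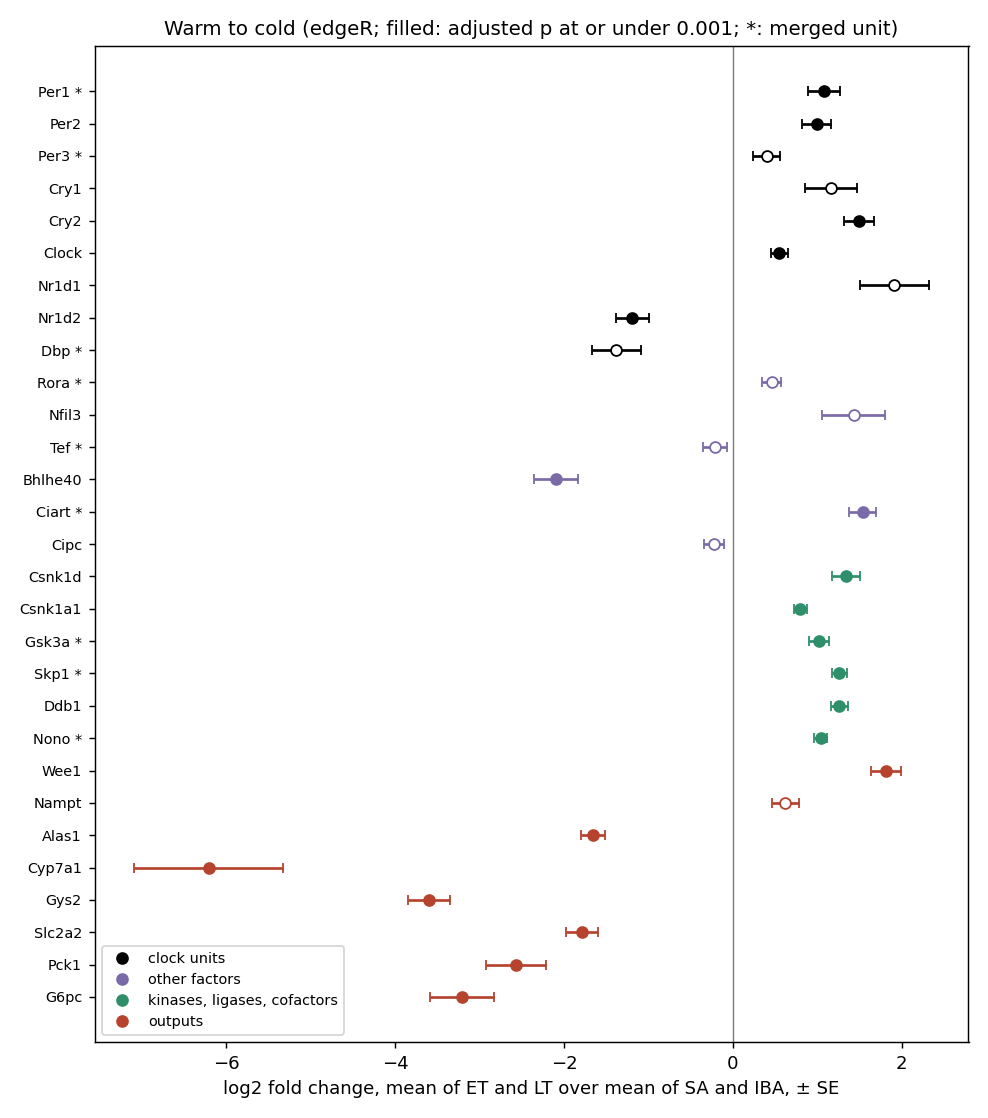
Log2 fold change with its standard error (horizontal axis) from the mean of SA and IBA to the mean of ET and LT for the 9 clock units, 6 other clock transcription factors, and kinases, ligases, cofactors and outputs that passed among the 5 states (rows; filled points passed edgeR's test here, asterisks mark merged units). The kinases and cofactors lie right of 0, and the outputs lie left of 0 except Wee1 and Nampt.

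The year of collection could be held constant for part of the cycle. Within the year that held 2 SA and all 3 IBA animals, mean log2 CPM differed from SA to IBA by -1.66 for Per2, -1.47 for the Per1 unit, -0.91 for Cry2, -0.68 for the Per3 unit and -1.15 for Nr1d1. These were all in the direction of the full comparison. Within the year that held 2 Ent animals and both LT animals, the difference from Ent to LT was 1.40 for Cry2, 1.05 for Per2, 1.24 for Cry1, 2.00 for Nr1d1, -0.82 for Nr1d2, -1.14 for the Dbp unit, 0.30 for the Per1 unit, 0.42 for the Per3 unit and 0.24 for Clock. The same year also held 1 SA animal. From it to LT the difference was 1.02 for Per2, 1.33 for Cry1, 0.88 for Cry2, 0.82 for Clock and 0.37 for Nr1d1. It was -1.50 for Nr1d2, -1.64 for the Dbp unit, 0.08 for the Per1 unit and -0.09 for the Per3 unit. The full comparison of SA and LT gave 0.96 for Nr1d1, 0.11 for the Per1 unit and 0.10 for the Per3 unit. Groups of this size were given no test. ET was alone in its year.

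The hour of collection was also added to the fit beside the state. Its own slope, which was examined only after the data were seen, was between -0.07 and 0.05 log2 units per hour for the 9 clock units. In edgeR's test of that slope 0 of 9 clock units passed, and 0% of all units. At an unadjusted p of 0.05 or less there were 0 clock units and 59 units in all, 0.933% of the table. A straight slope cannot follow a daily cycle, and the SA animals were all taken around midday. An effect of the daily cycle on the clock units was therefore not tested.

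The REV-ERB pair was compared within each library, which removes any effect of scaling between libraries. Per kb of unit length, the ratio of Nr1d1 to Nr1d2 was 1.45, 0.727 and 1.13 in SA, 0.255, 0.832 and 0.365 in IBA, and 0.567, 0.993 and 1.55 in Ent. It was 14.2, 6.03 and 6.48 in ET and 4.31 and 6.58 in LT. Every torpid liver thus had more counts per kb on the Nr1d1 unit than on Nr1d2. In the other 9 livers the ratio ran from 0.255 to 1.55, on both sides of equality. If counting did not use the strand, the Nr1d1 counts include reads of Thra from the 2259 nt of overlap. The part of such reads in the ratio was not tested. On the log2 scale the ratio was 2.79 ± 0.63 in the cold libraries (SD, n = 5) and -0.57 ± 0.96 in the warm ones (SD, n = 6), a difference of 3.36. This ratio was given no test, because the pair was chosen from the values above, where the warm and cold libraries of both genes already lay apart in opposite directions. The state and the year of collection cannot be told apart in this contrast.

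The cryptochromes were compared in the same way. Cry1 was at 0.225 to 0.404 of the per-kb level of Cry2 in SA, 0.367 to 1.0 in IBA, 0.230 to 0.458 in Ent, 0.251 to 0.458 in ET and 0.304 to 0.446 in LT. Cold minus warm was -0.28 on the log2 scale, less than the SDs of 0.39 over the 5 cold and 0.77 over the 6 warm libraries.

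**Figure D4:**
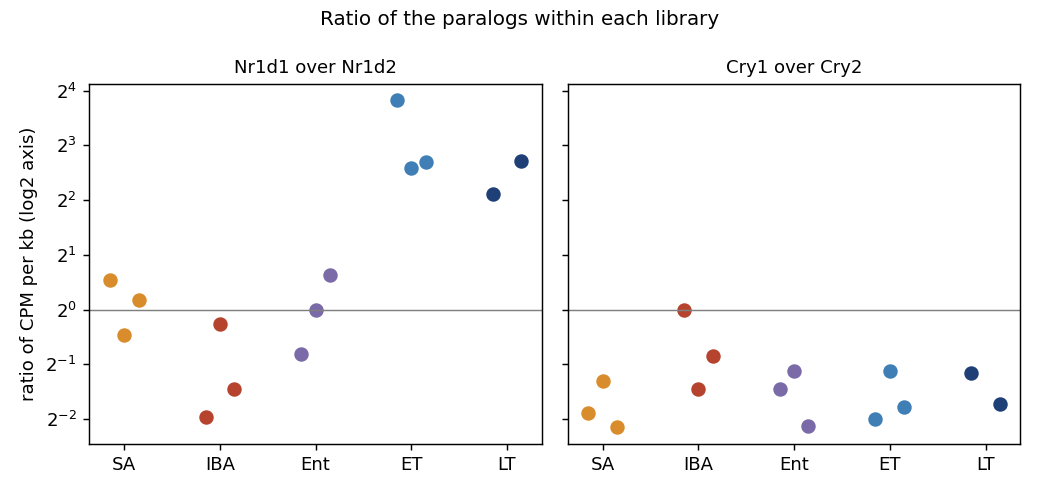
Ratio of CPM per kb of Nr1d1 to Nr1d2 (left) and of Cry1 to Cry2 (right) in each library (points, log2 vertical axis, grey line at equality) by state. The Nr1d1 to Nr1d2 ratio ran from 4.31 to 14.2 in ET and LT and from 0.255 to 1.55 in the other libraries.

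Per kb of unit length, the 6 single-gene units also changed their order between states. In IBA, Nr1d2 had the highest level, 5.50 ± 1.0 CPM per kb (SD, n = 3), followed by Nr1d1 at 2.87 ± 2.33 (SD, n = 3), Cry2 at 1.93 ± 0.491 (SD, n = 3), Clock at 1.76 ± 0.130 (SD, n = 3), Cry1 at 1.34 ± 1.0 (SD, n = 3) and Per2 at 1.16 ± 0.346 (SD, n = 3). Each overlapped with its neighbours in this order. In LT, Nr1d1 led with 15.7 ± 2.12 CPM per kb (SD, n = 2), followed by Cry2 at 8.79 ± 0.276 (SD, n = 2) and Per2 at 5.28 ± 0.135 (SD, n = 2), and Clock was last at 2.37 ± 0.325 (SD, n = 2). In SA, Nr1d1 at 8.04 ± 4.61 (SD, n = 3) and Nr1d2 at 6.83 ± 2.30 (SD, n = 3) overlapped.

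The paper reports that transcription in torpor often ran past gene ends, in places into the next gene. The units upstream of the clock units on the same strand were examined for their own changes. The nearest lay 14232 nt from the Per1 unit (Tmem107), 15566 nt from the Per3 unit (Camta1), 23524 nt from the Dbp unit (Mamstr) and 44124 nt from Nr1d2 (Rpl15). For Per2 (Ndufa10), Cry1 (Rtcb), Cry2 (Ext2), Clock (Aasdh) and Nr1d1 (Smarce1) the gap was 417108 nt or more. Only units of the count table with an unbroken interval were searched, so that genes without such a unit may lie closer. The Camta1 unit fell by 2.11 from warm to cold (SE 0.40, edgeR adjusted p = 0.00054) and the Tmem107 unit had -1.65 (SE 0.39, edgeR adjusted p = 0.0023), whereas the clock units downstream had changes above 0. Rpl15 rose by 2.02 (SE 0.16, edgeR adjusted p = 6.2e-07) upstream of Nr1d2, which fell. Mamstr, upstream of the Dbp unit, fell by 1.67 (SE 0.25, edgeR adjusted p = 9.5e-05). Farther away, Ndufa10 rose by 1.44 (edgeR adjusted p = 2.2e-06) and Smarce1 by 0.94 (edgeR adjusted p = 4.4e-05), while Ext2 had 0.31, Rtcb 0.28 and Aasdh -0.46, with edgeR adjusted p of 0.079, 0.058 and 0.0024. The upstream unit had the sign of its clock unit for 5 of the 9 (Per2, Cry1, Cry2, Nr1d1 and Dbp) and the other sign for 4.

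Of 13 other clock transcription factors, 7 had a unit, and 2 of the 7 passed among the 5 states, where 25.5% of all units did. Bhlhe40 (DEC1), a repressor that competes with CLOCK and ARNTL for E-boxes, had 209, 142 and 331 CPM in SA, 88.4, 161 and 114 in IBA, 83.0, 52.2 and 50 in Ent, 52.0, 42.0 and 30.6 in ET, and 42.3 and 30.2 in LT. Every ET and LT library lay below every SA and IBA library. Bhlhe40 changed among the states (edgeR adjusted p = 0.00012) and fell from warm to cold by 2.10 (SE 0.26, edgeR adjusted p = 2.1e-05). The unit of Ciart (CHRONO), a repressor of the same activators, is merged with Mrps21 and had 54.7 to 61.4 CPM in SA, 46.6 to 49.7 in IBA, 68.6 to 90.6 in Ent, 98.9 to 200 in ET and 144 and 143 in LT. It rose from warm to cold by 1.54 (SE 0.16, edgeR adjusted p = 5.2e-06), and all its cold libraries lay above the warm ones.

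The other 5 factors did not pass. Nfil3 (E4BP4), the repressor at the D-boxes that DBP activates, had means of 47.3 CPM in SA, 30.1 in IBA, 46.4 in Ent, 93.6 in ET and 109 in LT (warm to cold 1.43, SE 0.37, edgeR adjusted p = 0.0046). For Rora, the activator opposed by the REV-ERBs and here merged with Ice2, the change was 0.46 (SE 0.11, edgeR adjusted p = 0.0025). Tef (merged with Zc3h7b and G24076), a relative of Dbp, had -0.21 and Cipc, an inhibitor of CLOCK, -0.22, with edgeR adjusted p of 0.21 and 0.12.

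Among the kinases, ligases and cofactors that act on clock proteins, 23 of 32 listed genes had a unit. From warm to cold 7 of the 23 rose and 0 fell by edgeR, where 18.6% and 17.6% of all units did. The median log2 fold change was 0.25, and -0.04 over all units. Csnk1d, the casein kinase that marks PER proteins for degradation, rose by 1.34 (SE 0.17, edgeR adjusted p = 2.3e-05) and its relative Csnk1a1 by 0.80 (SE 0.08, edgeR adjusted p = 5e-06). Ddb1, an adaptor of a ubiquitin ligase that acts on CRY1, rose by 1.26 (SE 0.10, edgeR adjusted p = 6.7e-07). Merged units that rose were Gsk3a with Erf (1.02), Skp1 with Ppp2ca and G1846 (1.26), and Nono with Itgb1bp2 (1.04).

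Of 20 liver genes with well-known daily rhythms, 16 had a unit, and from warm to cold 1 rose and 7 fell (18.6% and 17.6% of all units), with a median of -0.69 against -0.04 over all units. Wee1, a cell cycle kinase driven through E-boxes, rose by 1.81 (SE 0.18, edgeR adjusted p = 3.2e-06), from means of 17.6 CPM in SA and 12.1 in IBA to 47.2 in ET and 54.5 in LT. Nampt, the rate-limiting enzyme of NAD salvage, passed among the 5 states (edgeR adjusted p = 0.00056) with means of 187 CPM in SA, 84.0 in IBA, 103 in Ent, 215 in ET and 174 in LT. The 9 hepatocyte markers with a unit had a median of -1.47 from warm to cold, and 4 of them fell and 0 rose. The part of such a shift in the changes of these rhythmic genes was not tested. Genes of metabolism were among the 7 that fell. Gys2, liver glycogen synthase, fell by 3.60 (SE 0.25, edgeR adjusted p = 3e-07). G6pc, which releases free glucose, fell by 3.21 (SE 0.38, edgeR adjusted p = 1.1e-05), and Pck1, of gluconeogenesis, fell by 2.57 (SE 0.35, edgeR adjusted p = 3.6e-05). Alas1 of heme synthesis fell by 1.66 and the glucose transporter Slc2a2 fell by 1.79. Cyp7a1, the rate-limiting enzyme of bile acid synthesis, fell too, with means of 100 CPM in SA, 11.8 in IBA, 1.51 in Ent, 0.348 in ET and 0.529 in LT. Its ET and LT means lay near the floor and rest on few reads, and its level was already low in Ent.

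The single-gene units whose 5 state means of log2 CPM, each centred on its own average, lay closest to those of Cry2 and Per2 were listed by the root mean square difference. Among these for Cry2 were Ggct (0.12) and Ivd (0.16). Ggct had means of 22.2 CPM in SA, 11.2 in IBA, 22.5 in Ent, 48.0 in ET and 49.1 in LT. For Per2 the closest were Poc1a (0.21), Timp3 (0.29) and Txnrd3 (0.29). Poc1a passed among the 5 states (edgeR adjusted p = 0.00015), whereas Timp3 (edgeR adjusted p = 0.014) and Txnrd3 (edgeR adjusted p = 0.029) did not. Poc1a had 58.0 CPM in SA, 19.6 in IBA, 39.6 in Ent, 63.4 in ET and 74.6 in LT. The likeness rests on 5 state means and is a description of these libraries.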

How the data were processed

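Nascent RNA of liver nuclei was sequenced by GRO-seq. The authors trimmed the reads with cutadapt, aligned them to the HiC_Itri_2 genome with BWA, redrew gene bodies with fstitch, joined overlapping genes, removed the first 500 nt, counted uniquely aligned reads with featureCounts and deposited raw counts per unit with the length of each unit. The LT library that the authors removed was not used here. Joining genes mixes their reads, and removing the start omits paused polymerase. Where fstitch segments reached past the annotated 3' end, the authors extended the unit to them. The paper reports that transcription in torpor often ran past the usual gene ends. The part of such reads in the cold values of the clock units was not tested.

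Counts of all 6324 units (4705 single-gene) in 14 libraries were fitted without a filter in edgeR 4.0.16 (TMM, quasi-likelihood, R 4.3.3). Log2 CPM used a prior count of 2. Members and lists were chosen with earlier results of these data known. Named are all members with a unit, their partners and upstream neighbours, the listed units past the threshold, the listed transcription factors, and 3 most similar units for the 2 single-gene members with the smallest p. A few units that meet this rule are not reported here. Paralog ratios were chosen after the values were seen.

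The fits were repeated with DESeq2 (version 1.42.0) and with voom of limma (version 3.58.1), with RLE, upper-quartile and total-count scaling, on units with at least 10 counts in every library, on single-gene units, at an adjusted p of 0.05, with at least a 2-fold change, with the replicate number as a block, with collection time or hibernation year as a covariate, and without each library. Scripts were tested on simulated data. Replicates were different animals and differed beyond counting noise (chi-square per degree of freedom 14.8 to 88.4).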

Additional observations from a re-analysis of the deposited data

How the results depend on the processing

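No clock unit changed sign from warm to cold under the alternatives that gave a value for it, and the hibernation year as a covariate was not among them because ET was alone in its year. Calls of clock units are given with the share of all units called in brackets. Over the 5 states, 8 clock units (50%) passed by DESeq2 and 9 (62.0%) at an adjusted p of 0.05. At the same settings, SA to IBA gave 3 (3.49%) and 4 (5.22%), IBA to Ent 1 (7.07%) and 3 (16.1%), Ent to ET 2 (14.8%) and 3 (28.8%), IBA to LT 5 (31.9%) and 8 (49.8%), SA to LT 4 (31.4%) and 6 (49.2%), and warm to cold 8 (48.3%) and 9 (64.5%). The hibernation year as a covariate left 0 (5.74%) from IBA to LT. Warm to cold gave 3 with a 2-fold minimum (21.8%) and 3 with collection time as a covariate (28.6%), under which the Per1 unit (0.98, edgeR adjusted p = 0.0023) and Clock (0.53, edgeR adjusted p = 0.0023) did not pass.

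Leaving out 1 library gave 1 to 4 (17.2% to 25.3%) over the 5 states, 0 to 1 (0.0158% to 0.190%) from SA to IBA, 0 to 1 (0% to 0.0633%) from IBA to Ent, 2 to 3 (3.83% to 19.3%) from IBA to LT, 0 to 1 (3.13% to 15.7%) from SA to LT and 2 to 6 (25.5% to 36.3%) from warm to cold. Over the 5 states only Cry2 passed without IBA replicate 2, LT replicate 1 or LT replicate 3, where Per2 had edgeR adjusted p of 0.0011, 0.0013 and 0.0011. The Per1 unit had 0.001 to 0.0038 without SA replicate 3, Ent replicate 1 or 3, or any IBA or LT library. LT rests on 2 animals, so that a fit without 1 of them assumes that the other varies like the remaining states.

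Replicate numbers name different animals: deviations of same-numbered libraries correlated by -0.26 to 0.23, with 6 of 26 pairs over 0.1. With the replicate number as a block, 3 clock units (18.8%) passed over the 5 states, 2 (12.4%) from IBA to LT, where the Per1 unit had an edgeR adjusted p of 0.0011, and 4 (31.9%) from warm to cold (Clock had 0.56, edgeR adjusted p = 0.0015).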

Other observations

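Noct, a deadenylase-like protein with a strong daily rhythm in mouse liver, had state means of 303 CPM in SA, 20.1 in IBA, 73.2 in Ent, 78.7 in ET and 38.9 in LT (edgeR adjusted p = 0.0061 among the 5 states). Lpin1, of lipid synthesis and a fasting-responsive gene, had 2758 CPM in SA, 741 in IBA, 3588 in Ent, 2957 in ET and 2483 in LT (edgeR adjusted p = 0.0096). Usp2, a deubiquitinase of clock proteins merged with Mfrp, had 110 CPM in SA, 40.5 in IBA, 49.3 in Ent, 54.3 in ET and 90.1 in LT (edgeR adjusted p = 0.0037). All 3 had their lowest state mean in IBA and did not pass the test. They were named after their values were seen.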
